A study of Saccharomyces cerevisiae with 49 samples.

Results

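The comparison set 4 S-phase arrays against 3 arrays of mitotic exit and early G1 (M/G1) from a budding yeast culture released from alpha factor. The S-phase arrays were those at 20, 30, 80 and 130 min after release, and the M/G1 arrays were those at 50, 60 and 110 min. These 7 arrays were chosen by time from the 17 arrays of the alpha-factor course, out of 49 arrays in the series. The 20, 30, 50 and 60 min arrays fall in the first cycle after release, the 80 and 110 min arrays in the second and the 130 min array in the third. The times were picked with earlier results of these data known, including the timing of the histone genes.

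All 7 arrays came from BY4741 bar1- cells, a laboratory strain with a mutation in BAR1, the gene of the protease that degrades alpha factor. The cells had been held with alpha factor at 1 ug/ml for 3 h, filtered, rinsed and released into fresh YPD with a supplement that the labels do not name. On every array, RNA of the synchronized cells was labelled with Cy5 and hybridized together with Cy3-labelled RNA of unarrested cells in mid-log growth. A level is the deposited ratio of synchronized over mid-log cells, taken as log2 and centred on the array's median. A difference is the mean level of the S-phase arrays minus that of the M/G1 arrays, so the common mid-log RNA drops out of it. The labels name no repeat culture, so the p-values measure the spread between arrays of the course and not between cultures. Some arrays of each side are neighbouring times of the same cycle, yet the fit counted each as a separate replicate. The spread thus mixes differences between cycles with differences between times within a cycle. In such bulk samples, less of a transcript per cell cannot be told apart from fewer cells at a stage.

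In S phase, DNA is copied and packed into new nucleosomes, and histone genes are transcribed in a burst that is tied to replication. At mitotic exit, mitotic cyclin-dependent kinase activity is removed and the cell divides. In the same window Mcm1 drives genes for loading the replicative helicase at origins. SBF and MBF then start the next round of G1/S transcription.

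The 2 sides were checked against gene lists for each stage. The histone list had median levels of 1.81 at 20 min, 1.13 at 30 min, 1.76 at 80 min and 1.01 at 130 min on the S-phase side. On the M/G1 side its medians were -1.94 at 50 min, -0.49 at 60 min and -0.18 at 110 min. Every S-phase array thus lay above every M/G1 array. The licensing and early G1 genes, 11 tested, ran the other way, with S-phase medians of -0.50, -0.78, -0.32 and -0.21 and M/G1 medians of 0.45, 0.18 and 0.20. Since the times were chosen with such patterns known, both lists describe the choice and are no independent check of it.

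**Figure D1:**
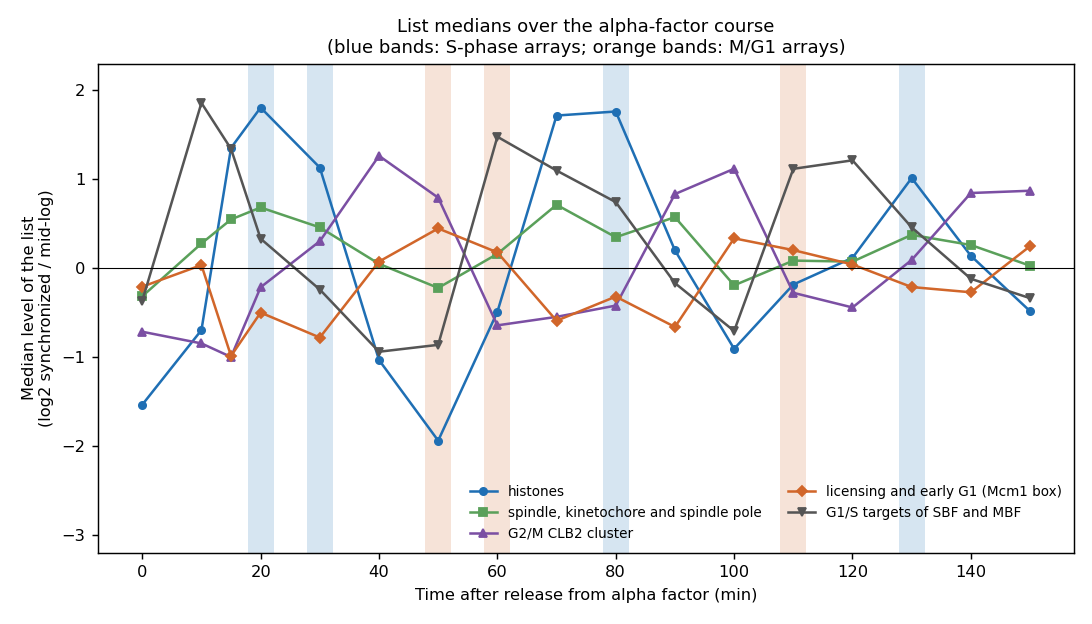
Median level of 5 gene lists (log2 of synchronized over mid-log cells) on the 17 arrays of the alpha-factor course, against minutes after release; blue bands mark the S-phase arrays and orange bands the M/G1 arrays. Histones are high in the blue bands and the licensing genes in the orange ones, while the G1/S targets stand at -0.86 at 50 min, 1.48 at 60 min and 1.12 at 110 min.

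The 3 M/G1 arrays were not of 1 stage. The G2/M CLB2 cluster, genes of mitotic entry and progression, still had a median of 0.79 at 50 min, against -0.64 at 60 min and -0.28 at 110 min. CDC5, the polo kinase, was at 1.15, -0.97 and -0.34 on these arrays, and the mitotic cyclin CLB2 at 1.18, -0.74 and -0.40. The G1/S targets of SBF and MBF were low at 50 min and high at the other M/G1 times, with CLN2, a G1 cyclin, at -1.99, 2.19 and 2.45. By these genes the 50 min array resembled late mitosis and the 60 and 110 min arrays held cells that already transcribed G1/S genes. The S-phase arrays also differed from each other. At 20, 30, 80 and 130 min CLN2 was at -0.05, -0.83, 1.89 and 1.16, and CLB2 at 0.40, 0.90, -0.20 and 0.26. A gene had to be high or low across all of these stages to pass the comparison, so genes of a narrower window could miss it.

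Of 5445 features tested with limma, 57 were higher on the S-phase arrays (1.05% of those tested) and 34 were lower (0.624%) at an adjusted p under 0.05. The 91 calls made up 1.67% of the features. Without adjustment, 486 features were higher and 499 lower at a p under 0.05, and the median difference of all features was -0.01. These counts hang on single arrays. No feature was called higher when the 20, 30, 80 or 60 min array was left out, and 5 when the 110 min array was. The lower calls numbered 0 without the 20, 80 or 60 min array, 1 without the 30 min array and 2 without the 110 min array, but 52 without the 130 min array and 117 without the 50 min array. The 91 called features kept their sign in each of these leave-one-out fits. That was fixed beforehand, since the S-phase and M/G1 arrays of these features did not overlap. The 37 called genes that the naming rule picked passed in 5 to 12 of up to 17 alternative fits, with AIM44 passing in the most. With quantile normalization in place of centring, 70 features were higher and 72 lower.

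Of 9 histone genes tested, 6 were called higher in S phase, and the list had a median difference of 2.37. The times were picked with the timing of these genes known, so their p-values are no independent test. HTA2, which encodes histone H2A, had levels of 1.48, 1.13, 1.72 and 1.01 at 20, 30, 80 and 130 min, against -2.53, -0.997 and -0.50 at 50, 60 and 110 min. Its difference was 2.68 ± 0.44 (SE, adjusted p = 0.0328), and the groups did not overlap. HHF1, for histone H4, stood at 2.43, 1.64, 2.18 and 1.34 on the S-phase arrays and at -1.94, -0.36 and 0.23 on the M/G1 arrays (difference 2.59 ± 0.49, SE, adjusted p = 0.0437). The 50 min array was the lowest for both genes, far under the other M/G1 arrays. HTB2 (2.38), HHT1 (2.37), HTA1 (2.21) and HTB1 (2.17), for H2B, H3, H2A and H2B, were the other genes called. With the cycle as a block in the fit, HHF1 (adjusted p = 0.0516) and HTB2 (adjusted p = 0.0553) did not pass. HHF2 (2.37, adjusted p = 0.0627), HHT2 (1.99, adjusted p = 0.0715) and the linker histone gene HHO1 (1.30, adjusted p = 0.181) did not pass, although all 9 genes were above in every S-phase array, where 9.88% of all features were. The pairs encoding the same histone are near-identical in their coding sequence, so a probe may read both copies and the copies cannot be counted as separate measurements.

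On a list of S-phase and G2 transcription regulators and Hcm1 targets, 2 of 12 tested genes were called higher and none lower, with a median of 0.53. FKH1, a forkhead factor of the G2/M programme, was at 1.78, 1.41, 0.97 and 0.63 in S phase, against -0.50, -1.25 and -0.82 at M/G1, a difference of 2.05 ± 0.29 (SE, adjusted p = 0.0258). Its lowest S-phase level, at 130 min, was still above all M/G1 levels. The levels of TAO3, given below, differed from those of FKH1 by a median of 0.038 over 17 arrays. DSN1, a kinetochore subunit on the Hcm1 target list, differed by 0.88 ± 0.14 (SE, adjusted p = 0.0328; 0.0563 with the cycle as a block). Of the rest, YHP1, a homeobox repressor, differed by 1.52 without passing (adjusted p = 0.09), and HCM1 itself by -0.06.

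Of 33 tested genes for the spindle, 4 were called higher in S phase and 0 lower, 25 of 33 differences were positive, where 2611 of all 5445 were, and the median was 0.45. TUB1, an alpha-tubulin, had levels of 0.44, 0.44, 0.61 and 0.49 in S phase, against -0.99, -0.49 and -0.31 at M/G1 (difference 1.09 ± 0.17, SE, adjusted p = 0.0295). The 4 S-phase levels of TUB1 lay within 0.2 of each other while those of the M/G1 arrays spread over more than that. TUB2, the beta-tubulin, differed by 0.91 (adjusted p = 0.0258). TUB3, the other alpha-tubulin, differed by 1.07 and missed the threshold (adjusted p = 0.066), and its sequence is close enough to TUB1 that cross-hybridization cannot be told apart from its own level. VIK1, a partner of the Kar3 motor, stood at 1.48, 1.06, 0.63 and 0.58 in S phase and at -0.24, -0.34 and -0.20 at M/G1 (difference 1.20 ± 0.22, SE, adjusted p = 0.0386). KIP3, a kinesin that shortens microtubules, averaged 0.44 ± 0.16 in S phase and -0.54 ± 0.13 at M/G1 (SD, n = 4 and 3), a difference of 0.98 (adjusted p = 0.0238). KIP1 and TUB4 had the lowest differences of the list, -0.68 and -0.69, and neither passed.

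**Figure D2:**
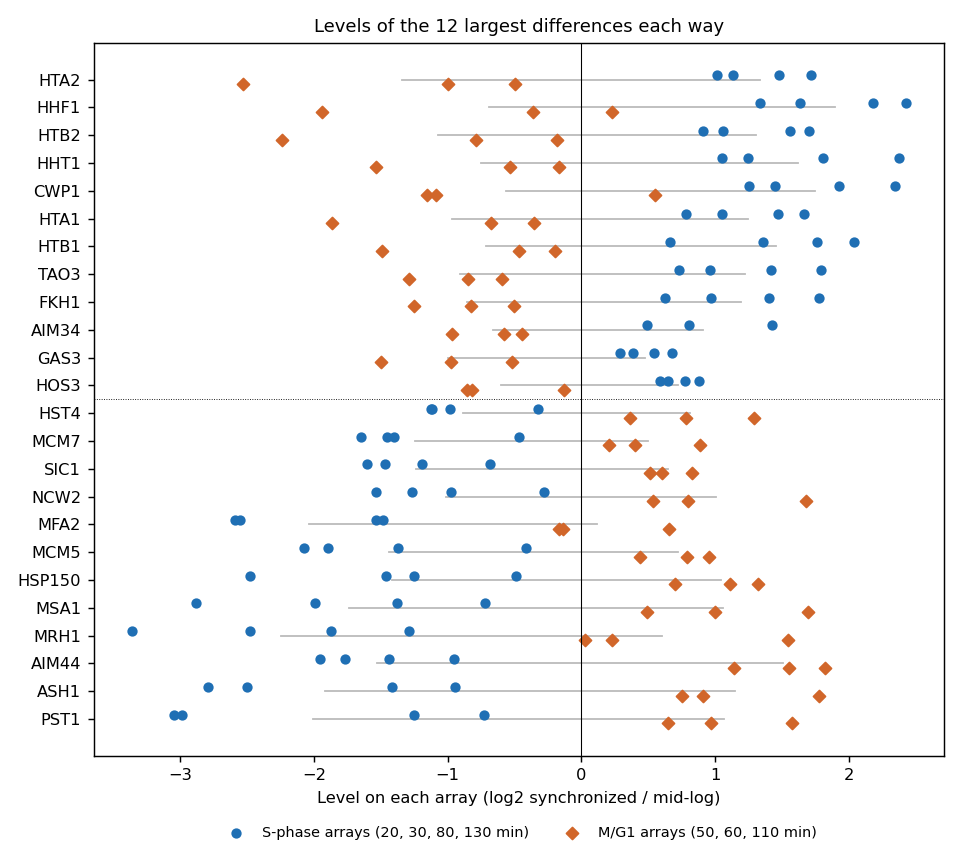
Levels (log2 of synchronized over mid-log cells) on each array of the 12 largest called differences in each direction, in order of difference; blue circles are the 4 S-phase arrays, orange diamonds the 3 M/G1 arrays, and grey lines join the group means. No gene's groups overlap, and the lowest M/G1 level of HTA2 is -2.53, at 50 min.

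Several other genes with large differences were higher in S phase. CWP1, a mannoprotein of the cell wall, was at 1.26, 1.93, 1.45 and 2.35, against -1.15, -1.08 and 0.55 at M/G1, a difference of 2.31 ± 0.44 (SE, adjusted p = 0.0437). Its highest S-phase level was on the 130 min array and its highest M/G1 level on the 110 min array. With the cycle as a block in the fit it did not pass (adjusted p = 0.0563). HOS3, a histone deacetylase, stood at 0.59, 0.88, 0.65 and 0.77 in S phase and at -0.81, -0.86 and -0.13 at M/G1 (difference 1.32 ± 0.19, SE). AIM34 differed by 1.57 and had no value on the 20 min array. TAO3, a component of the RAM signalling network, differed by 2.14 ± 0.27 (SE, adjusted p = 0.0238). Its levels differed from those of FKH1 by a median of 0.038 over 17 arrays. Whether the 2 probes read separate transcripts was not tested.

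Cell wall genes split between the 2 sides. In the SUN and PIR families, 2 of 9 tested genes were called higher and 1 lower, with a median of -1.20. CIS3, a PIR wall protein, was at 1.48, 1.44, 1.55 and 1.32 in S phase, against 0.05, 0.44 and 0.58 at M/G1, a difference of 1.09 ± 0.15 (SE, adjusted p = 0.0238). HSP150, another PIR protein, was at -2.48, -1.46, -1.25 and -0.49 in S phase and at 1.11, 1.32 and 0.70 at M/G1, a difference of -2.46 ± 0.41 (SE, adjusted p = 0.0328). The 2 genes thus lay on opposite sides although they are next to each other on chromosome X. PIR1 (-2.99, adjusted p = 0.0648) and PIR3 (-3.05, adjusted p = 0.066) had the direction of HSP150 without passing. SIM1, of the SUN family, differed by 1.25 (adjusted p = 0.0359), while its relative SUN4 differed by -0.77 (adjusted p = 0.499).

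Of 23 glucan and chitin genes tested, 2 were called higher and 2 lower. GAS3, of the glucanosyltransferase family, was at 0.54, 0.68, 0.39 and 0.29 in S phase, against -1.50, -0.98 and -0.52 at M/G1 (difference 1.47 ± 0.22, SE, adjusted p = 0.028). BGL2, a wall glucosyltransferase, differed by 0.64. CHS1, the chitin synthase that repairs the wall after separation, was at -0.59, -0.37, -0.07 and 0.02 in S phase and at 0.73, 1.83 and 1.16 at M/G1 (difference -1.49 ± 0.26, SE, adjusted p = 0.0374). UTR2, which links chitin to glucan, differed by -0.88. Neither CHS1 nor UTR2 passed with the cycle as a block (adjusted p = 0.0563 for each). In the glycosylation list, 1 of 23 genes was called higher and none lower, ANP1 of a Golgi mannosyltransferase complex, at 0.68, and 19 of the 23 differences were positive with a median of 0.30.

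Some genes known for their part in mitotic exit and cytokinesis were among the calls lower in S phase. ASH1, which represses mating-type switching in daughter cells, was at -2.79, -2.50, -1.42 and -0.95 in S phase, against 1.78, 0.91 and 0.75 at M/G1, a difference of -3.06 ± 0.46 (SE, adjusted p = 0.028). SIC1, the inhibitor of S-phase cyclin kinase, was at -1.47, -1.61, -1.19 and -0.68 in S phase and at 0.60, 0.83 and 0.51 at M/G1, a difference of -1.88 ± 0.22 (SE, adjusted p = 0.0238). For both genes the S-phase levels were least low at 130 min. CYK3, a cytokinesis factor, differed by -1.21 (adjusted p = 0.0404). PCL9, a cyclin of the Pho85 kinase, had the even M/G1 levels 1.22, 1.09 and 1.15 but S-phase levels from -3.69 to -0.70, and its difference of -3.32 did not pass (adjusted p = 0.0516).

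Other genes of mitotic exit and early G1 were led by AIM44, whose product sits at the bud neck. AIM44 was at -1.77, -1.95, -1.44 and -0.95 in S phase, against 1.83, 1.55 and 1.15 at M/G1, a difference of -3.04 ± 0.26 (SE) and the lowest adjusted p of the table, 0.0105. PST1, a wall protein, was at -2.99, -3.05, -1.25 and -0.73 in S phase and at 0.65, 1.58 and 0.97 at M/G1 (difference -3.07 ± 0.58, SE, adjusted p = 0.0437). The first-cycle S-phase arrays were the low ones for PST1. MSA1, a regulator of SBF and MBF, differed by -2.81, MRH1, a plasma membrane protein, by -2.85 and NCW2, a wall protein, by -2.02 (adjusted p = 0.0371; 0.0563 with the cycle as a block). HST4, a deacetylase of the Sir2 family that acts on histone H3, differed by -1.70 ± 0.27 (SE, adjusted p = 0.0295).

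Among 11 tested licensing and early G1 genes, 2 were called lower in S phase and none higher, with a median of -1.28. Both encode subunits of the Mcm2-7 helicase. MCM5 was at -2.07, -1.90, -1.37 and -0.42 in S phase, against 0.95, 0.79 and 0.44 at M/G1, a difference of -2.17 ± 0.37 (SE, adjusted p = 0.0359). MCM7 was at -1.65, -1.45, -1.40 and -0.47 in S phase and at 0.89, 0.40 and 0.20 at M/G1 (difference -1.74 ± 0.29, SE, adjusted p = 0.0346). MCM4 (-1.98, adjusted p = 0.0511), MCM6 (-1.11, adjusted p = 0.0516) and the loading factor CDC6 (-1.51, adjusted p = 0.066) ran below in every S-phase array without passing, while MCM3 differed by -0.04. ORC1, the largest subunit of the origin recognition complex, differed by 0.69 (adjusted p = 0.0639). Of the 11 genes, 7 lay below and 1 above in every S-phase array, where 9.04% of all features lay below and 9.88% above. As for the histones, the times were picked with such patterns known, so these p-values are no independent test.

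Some mating genes were lower in S phase. Of 21 pheromone response and mating genes tested, 2 were called lower and none higher, and the list median was -0.14. MFA2, a gene for the a-factor pheromone, was at -2.56, -2.59, -1.48 and -1.54 in S phase, against 0.65, -0.17 and -0.14 at M/G1 (difference -2.16 ± 0.35, SE, adjusted p = 0.0328). The related gene MFA1 differed by -0.83 (adjusted p = 0.102), and the 2 probes may share signal. GPA1, the G protein alpha subunit of the pheromone receptor, was at -2.02, -1.66, -1.81 and -1.09 in S phase and at 0.20, -0.21 and -0.30 at M/G1 (difference -1.54 ± 0.23, SE, adjusted p = 0.0279). STE6, the a-factor exporter, was at -2.79, -2.92, -1.44 and -0.63 in S phase and at 0.53, -0.22 and -0.15 at M/G1 (adjusted p = 0.105). FAR1, the cyclin kinase inhibitor of pheromone arrest, differed by -1.28 (adjusted p = 0.0617). FUS1, a fusion gene induced by pheromone, differed by -0.32 with overlapping groups, and so did the adhesin gene AGA1, at 0.12. BAR1, mutated in this strain per its label, had a value on 0 of the 17 alpha-factor arrays and on 32 cdc28 arrays, and the receptor gene STE2 showed the same pattern of values. Ratios against mid-log cells of the same strain do not show whether a cell type marker is present. Of the marker lists, 1 of 5 tested a-cell genes was called lower (MFA2). All 5 were lower before adjustment (p under 0.05), and their median was -0.94. Of the 5, 4 lay below in every S-phase array, where 9.04% of all features did. Of the others, 0 of 6 meiosis genes and 0 of 1 alpha-cell gene were called by limma, where 1.67% of all features were. Among these 7, 1 was lower at an unadjusted p under 0.05.

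For the septins and the cytokinetic ring, 1 of 16 tested genes was called higher and 1 lower. CDC11, a septin, was at 0.72, 0.55, 0.61 and 0.61 in S phase, against -0.09, -0.16 and -0.23 at M/G1, a difference of 0.78 ± 0.11 (SE, adjusted p = 0.0238). The septin genes CDC12 (0.73), CDC10 (0.56) and CDC3 (0.33) were above in every S-phase array without passing. Of the 16 genes, 6 lay above and 1 below in every S-phase array, where 9.88% of all features lay above and 9.04% below. CYK3 was the gene called lower. HOF1, which acts with it at the bud neck, differed by -1.27 with wide overlap (adjusted p = 0.303).

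Phosphate genes gave 1 call lower among 18 tested and none higher, with a median of -0.57. SPL2, an inhibitor of low-affinity phosphate uptake, was at -1.33, -1.40, -1.42 and -0.65 in S phase, against 0.62, -0.04 and -0.02 at M/G1 (difference -1.39 ± 0.24, SE, adjusted p = 0.0371). PHO5, a secreted acid phosphatase, was at -2.69, -2.24, -0.86 and -0.30 in S phase and at 1.97, 0.35 and 0.23 at M/G1. Its difference of -2.37 did not pass (adjusted p = 0.105), nor did those of PHO11 (-2.25) and PHO12 (-2.24), which are near-identical to each other, or PHO3 (adjusted p = 0.145). For 8 of the 18 genes every S-phase level was under every M/G1 level, where 9.04% of all features were so placed.

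**Figure D3:**
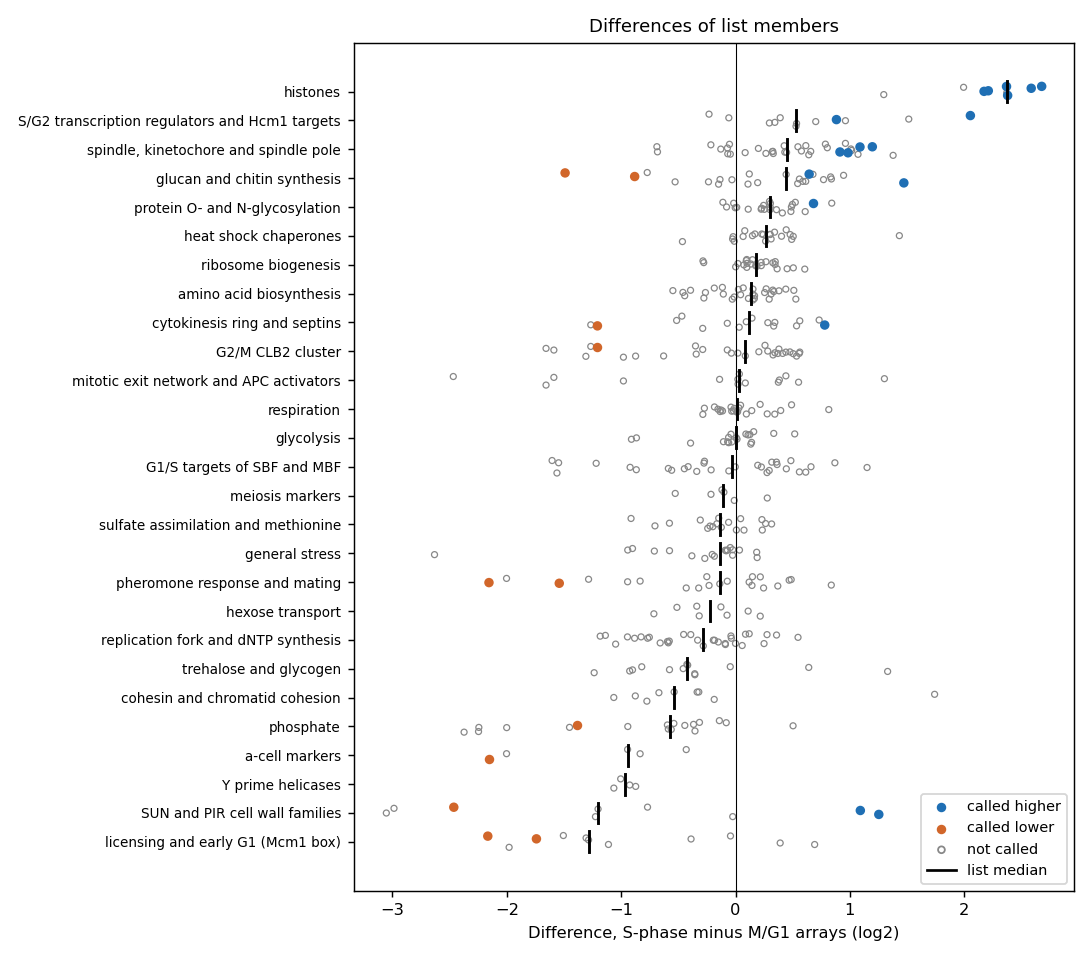
Difference of each tested member of 27 gene lists, S-phase minus M/G1 arrays (log2), with list medians as black bars, calls higher in blue, calls lower in orange and members not called as open circles. Histones stand at the top with a median of 2.37 and the licensing genes at the bottom with -1.28, where MCM5 and MCM7 are the called members.

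No gene on the lists of the G1/S transition, the replication fork or cohesin was called, where 1.67% of all 5445 features were. At that share, lists of this size can hold 0 calls. Before adjustment, limma placed 486 of the 5445 higher and 499 lower at a p under 0.05. Of 30 G1/S targets limma called 0, while 2 were higher and 1 lower before adjustment (p under 0.05), and the median was -0.03. The G1 cyclins overlapped, CLN1 with a difference of 0.23 and CLN2 of -0.34. Of 31 fork and nucleotide synthesis genes limma also called 0 (before adjustment, 1 higher and 7 lower at a p under 0.05), with a median of -0.28 and 7 of 31 differences positive. POL30, the sliding clamp PCNA, was at -0.08, -1.30, 0.25 and -0.24 in S phase, against -1.61, 2.00 and 1.43 at M/G1. RNR1, the large subunit of ribonucleotide reductase, was at -2.11, 1.96 and 1.28 on the M/G1 arrays. Both were low at 50 min and high at 60 and 110 min. The cohesin list gave 0 calls by limma among 9 tested (before adjustment, 0 higher and 4 lower at a p under 0.05). Its median was -0.54, with 1 of 9 differences positive and 3 genes below in every S-phase array, where 9.04% of all features were. The cohesin subunit gene MCD1 had the same M/G1 pattern, -1.49, 2.74 and 1.73.

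Among mitotic genes, the G2/M cluster had 1 of 29 tested genes called lower (CYK3) and none higher, with a median of 0.09. Of all features, 0.624% were called lower and 1.05% higher. In every S-phase array 1 gene lay above and 4 below, where 9.88% of all features lay above and 9.04% below. CDC20, an activator of the anaphase-promoting complex, was at -2.61, -1.06, -1.74 and -0.68 in S phase, against 1.22, -0.71 and -0.30 at M/G1 (difference -1.59, adjusted p = 0.188). PDS1, the securin, was at 1.73, 1.06, 0.88 and 0.63 in S phase and at -3.10, 0.83 and 0.28 at M/G1, a difference of 1.74 (adjusted p = 0.319) with the 50 min array far below the others. SPO12, of the mitotic exit network, was at 2.38 at 50 min and at 0.48 and 0.24 on the other M/G1 arrays (difference -1.66, adjusted p = 0.17). Limma called 0 of 14 genes of mitotic exit and anaphase-promoting complex activation, while 3 were higher and 4 lower before adjustment (p under 0.05), and 3 lay above and 2 below in every S-phase array. Of the 25 core cell cycle genes tested, ASH1 and SIC1 were the 2 called, where 1.67% of all features were.

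**Figure D4:**
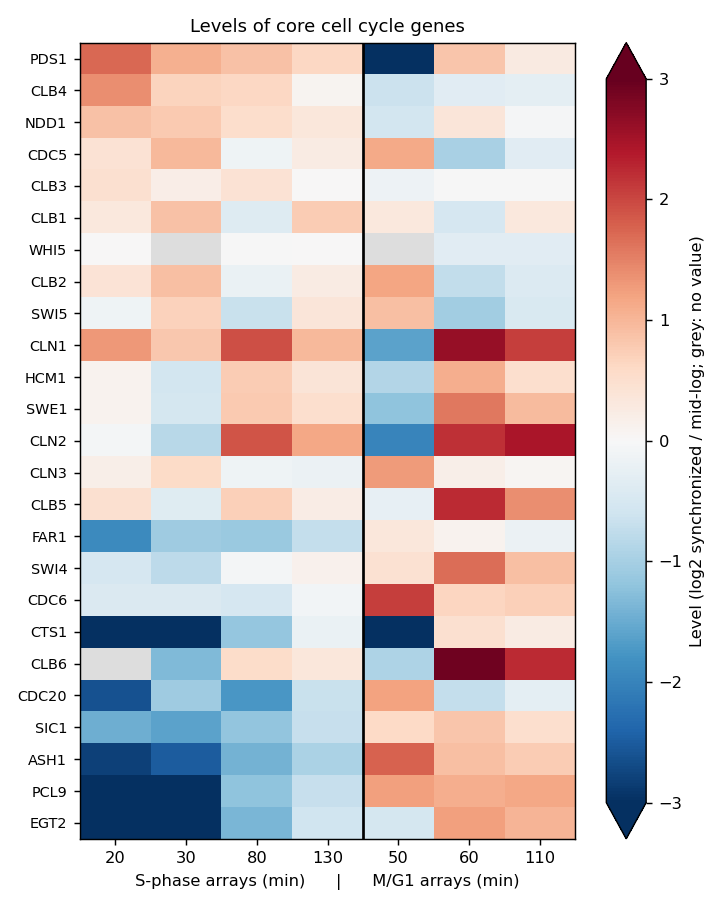
Levels of 25 core cell cycle genes (colour, log2 of synchronized over mid-log cells, cut at -3 and 3; grey marks no value) on the S-phase arrays, left of the line, and the M/G1 arrays, right of it, with genes in order of their difference. ASH1 and SIC1 are low throughout the left side and high throughout the right, while CLN1, CLN2, CLB5 and CLB6 change sign between 50 min and the 60 and 110 min arrays.

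No list of metabolic or stress genes held a called gene, where 1.67% of all features were called. At that share, lists of this size can hold 0 calls, so this says little about these genes. Limma called 0 genes of ribosome biogenesis (23 tested), amino acid biosynthesis (30), glycolysis (19), hexose transport (8), trehalose and glycogen (13), heat shock (21), general stress (18), respiration (23) and sulfate assimilation (18). At an unadjusted p under 0.05 the largest counts among these lists were 6 higher for amino acid biosynthesis and 5 lower for trehalose and glycogen. Of all 5445 features, 486 were higher and 499 lower at that limit. Their medians ran from -0.42 for trehalose and glycogen to 0.26 for heat shock chaperones. Levels rather than differences were above mid-log on all 7 arrays for some of them, such as glycolysis, with S-phase medians of 0.33, 0.36, 0.86 and 0.93 and M/G1 medians of 0.53, 0.64 and 0.66.

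The helicase genes of the Y prime elements, repeats at chromosome ends, all lay lower in S phase. The 4 tested had differences from -1.06 to -0.87, each below in every S-phase array, where 9.04% of all features were. Limma called 0 of them, where 1.67% of all features were called. Before adjustment, 0 were higher and 4 lower at a p under 0.05, and the lowest adjusted p was 0.066, for YRF1-6. Their copies are near-identical, so the 4 probes are best read as 1 measurement. YPR203W, the second gene from an end of chromosome XVI, was called lower, with levels of -1.02, -1.09, -0.43 and -0.31 in S phase, against 0.24, 1.06 and 0.82 at M/G1. YFL065C, the 4th gene from an end of chromosome VI, was also called lower, at -1.45, with no value at 20 or 50 min. Both were chosen here after their values were seen.

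A few further called genes, likewise chosen after their values were seen, belong to chromosome biology and secretion. HTZ1, for the histone variant H2A.Z, differed by 1.09, with S-phase levels from 0.41 to 0.50 and M/G1 levels from -0.84 to -0.32. SGO1, the guardian of centromeric cohesion, differed by 1.04, MAD3, a spindle checkpoint gene, by 0.86 and YCG1, a condensin subunit, by 0.74. The DNA helicase genes RRM3 and SGS1 differed by 1.08 and 0.87. KAR2, the chaperone BiP of the endoplasmic reticulum, was at 1.28, 0.95, 0.94 and 0.95 in S phase, against -0.17, 0.19 and 0.09 at M/G1. GPI13, which builds the anchor of wall proteins, differed by 0.85, and the wall protein genes TIR1, CWP2 and CCW14 by 1.14, 0.85 and 0.65. Among genes called lower were KAR1, needed for spindle pole body duplication (-1.26), and RAM1, a subunit of the enzyme that farnesylates a-factor (-0.97).

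The first 2 cycles were then set side by side, using 20 and 30 against 50 and 60 min for the first and 80 against 110 min for the second. Genes were picked in the first cycle alone, where both S-phase arrays stood on 1 side of both M/G1 arrays and the difference was at least 1. This gave 118 genes higher (2.42% of 4879 with all 6 values) and 177 lower (3.63%). In the second cycle 107 of the 118 were again positive (90.7%) and 156 of the 177 again negative (88.1%), where 51.3% of all 4879 were positive. Differences were smaller in the second cycle, with medians of 0.59, against 1.30 in the first, for the higher genes, and -0.93, against -1.46, for the lower ones. Picking genes by a large first-cycle difference favours this by itself, and whether the second cycle was weaker was not tested. With a minimum difference of 2, the sign held for 16 of 17 higher and 44 of 46 lower genes.

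All 89 called features with values in both cycles had the same sign in each. That was fixed by the choice over all 7 arrays, since their S-phase and M/G1 arrays did not overlap. The second-cycle difference was the smaller for 44 of 56 higher genes, with a median ratio of 0.789 to the first, and for 32 of 33 lower genes, with a median ratio of 0.679. The calls drew on more first-cycle than second-cycle arrays, which may favour larger first-cycle differences. ASH1 differed by -2.17 in the second cycle and -3.99 in the first, SIC1 by -1.70 and -2.25, and HTA2 by 2.22 and 3.07. CDC11 was an exception, with 0.83 in the second cycle and 0.76 in the first. Across 4879 features, which are not independent, the first- and second-cycle differences correlated with Pearson's r of 0.607 and Spearman's rho of 0.450.

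**Figure D5:**
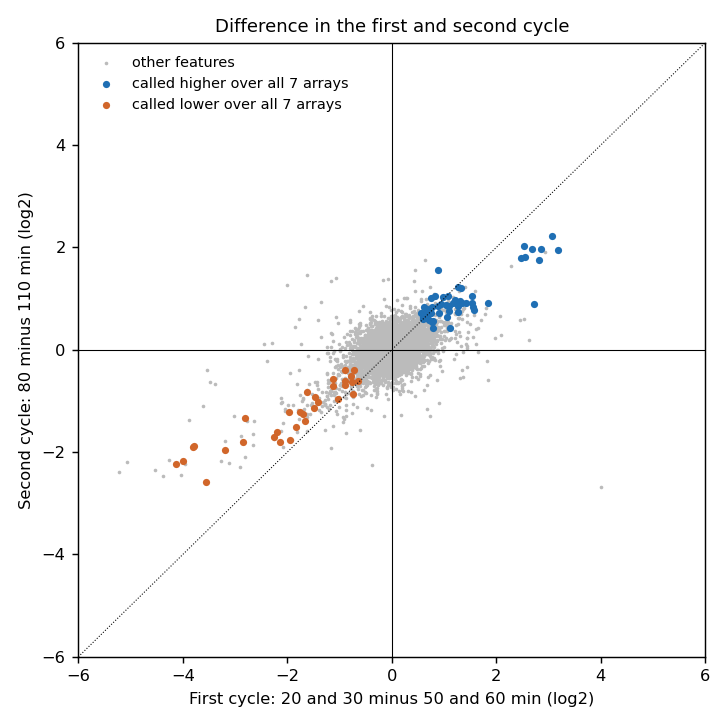
Difference in the second cycle (80 minus 110 min, log2) against the first (20 and 30 minus 50 and 60 min, log2) for 4879 features, with the features called over all 7 arrays in blue (higher) and orange (lower); the dotted line marks equality. Called features lie in the same-sign quadrants, as is fixed where S-phase and M/G1 arrays do not overlap. Most are nearer to 0 in the second cycle, with a median ratio of 0.679 for the lower ones.

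The called genes could also be followed on the 10 alpha-factor arrays that entered no test. The genes called higher had median levels of 0.39 at 15 min, 0.37 at 70 min, 0.54 at 90 min and 0.29 at 140 min, and the genes called lower had -0.64, -0.48, -0.90 and -0.33 at these times. At 0, 100 and 120 min the signs were opposite, with -0.32, -0.17 and -0.21 for the higher genes and 0.18, 0.29 and 0.39 for the lower ones. The signs were also opposite at 10 min (-0.29 and 0.11) and, more weakly, at 150 min (-0.04 and 0.07). At 40 min the medians were 0.15 for the higher genes and -0.40 for the lower ones. On the S-phase arrays themselves the median of the higher genes was 0.68 at 20 min and 0.52 at 130 min, and that of the lower genes was -1.02 and -0.65.

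Some called genes were neighbours, by gene order in the RefSeq annotation. FLR1, PIG1 and ASG1 were chosen here for their position, after the values were seen. The divergent histone pairs HTA2 and HTB2 and HHF1 and HHT1 on chromosome II and HTA1 and HTB1 on chromosome IV were called together. FLR1, a drug transporter gene next to HHF1, was also called, at 1.19. MCM5 lay next to PIG1, a glycogen regulator, which differed by -1.17. CWP1 and CWP2 are adjacent on chromosome XI. TAO3 and FKH1 on chromosome IX are separated by ASG1, and their levels differed by a median of 0.038 and at most 0.233 over 17 arrays. ASG1 itself stayed between -0.34 and 0.17 and differed from FKH1 by a median of 0.839. Whether the TAO3 and FKH1 probes read separate transcripts was not tested.

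The 2 cdc28 courses, in which cells of a temperature-sensitive cyclin kinase mutant were released from G1, entered no test. After 0 min, the histone list had its highest median at 45 min in one course (1.37) and at 50 min in the other (0.56). The licensing genes had theirs at 120 min in both, at 0.42 and 0.34. In the alpha-factor course the corresponding times were 20 min for the histones and 50 min for the licensing genes.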

How the data were processed

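Gene expression of synchronized yeast was measured on dual-colour oligonucleotide arrays. The deposited table held 6258 probes on 49 arrays, as log2 ratios made by the authors; the labels name the dyes, and log base, centring and direction are taken from them and from the values, since the table does not state them. How arrays were scanned, background-corrected, filtered and normalized is not stated in the labels or the table. Of the probes, 5570 carried 1 gene symbol, 0 several and 688 none in the platform annotation; probes of a gene were averaged, giving 6228 features. Column medians of the 7 arrays lay between -0.051 and -0.002, and each was subtracted. The 7 arrays had from 5168 to 6110 values each; their number limits precision.

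The 5445 features with at least 3 S-phase and 2 M/G1 values were tested with limma 3.58.1 in R 4.3.3 (S-phase minus M/G1, 5 residual degrees of freedom, Benjamini-Hochberg adjustment over all features tested), and 783 were not tested. The code was tested on simulated data. Members and lists were chosen with earlier results of these data known. Genes named were the 12 largest called differences each way, the 3 largest called of each list and the core cell cycle genes; others are given as list members or are marked as chosen after their values were seen. Of 588 list entries, 4 had no feature, and the results of 2 lists are not reported here. Arrays correlated between 0.436 and 0.890 within S phase, 0.369 and 0.830 within M/G1, and 0.119 and 0.626 across the sides; the lowest correlation of any 2 arrays in the series was -0.295. Alternatives were other scalings, filters, covariates, a cycle block, subsets of arrays and leaving out each array. A planned search of promoters for motifs was not run, since no promoter sequence was used here. Gene order came from the RefSeq R64 annotation, whose build may differ from that of the probes.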

Additional observations from a re-analysis of the deposited data

Results flagged for a closer look

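Of the 60 named genes, 2 had an S-phase array far from the other 3. SPL2, the phosphate uptake inhibitor, was at -0.65 at 130 min, and the gap to its nearest neighbour was 0.889 of the group's range. CDC6, the helicase loading factor, was at -0.09 at 130 min, with a gap of 0.844 of the range. Both gaps pass Dixon's 95% limit for 4 samples, which chance passes in about 1 of 20 groups, so 2 in 60 is no more than chance gives. The genes' S-phase levels were otherwise between -1.42 and -1.33 for SPL2 and between -0.50 and -0.44 for CDC6.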

How the results depend on the processing

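The number of calls depended on the processing and on single arrays. Leaving out 1 array at a time gave 0 to 68 features higher and 0 to 117 lower by limma, against 57 and 34 with all arrays; fits with no call higher still had 352 to 451 features higher at an unadjusted p under 0.05. Time as a covariate gave 101 higher and 106 lower. Array letter (T or B in the array name) as a covariate gave 31 and 17. The T arrays alone gave 0 and 0 (294 and 257 at an unadjusted p under 0.05), as did averaging 20 with 30 min and 50 with 60 min (317 and 351). The first cycle alone gave 32 higher and 49 lower, sharing 15 and 14 features with the fit of all arrays. Quantile normalization gave 72 lower.

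The labels carry no replicate numbers that pair S-phase with M/G1 arrays. With the cycle as a replicate block, limma called 67 higher and 64 lower, of which 46 and 20 were shared, and HHF1, HTB2, CWP1, NCW2, DSN1, CHS1 and UTR2 no longer passed. The 91 called features kept their sign under each alternative in which they had a value, including 89 of 89 with the second cycle alone and 91 of 91 with the B arrays alone (80 against 60 min), which allow no test. In subsets of the same arrays the sign was fixed beforehand, since no called feature's S-phase and M/G1 arrays overlapped. For the 37 genes named by rule that were called, 317 of 626 tested alternative values passed the threshold and 309 kept the direction without passing, and 15 untested values moved by more than the replicate spread; 15 values of uncalled genes passed under an alternative. List medians moved beyond the spread in 45 of 589 values. The cause of these changes was not tested. With 1 culture, no result here carries an error between cultures.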
